A study of Homo sapiens and Mus musculus and synthetic construct with 31 samples.

Results

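A set of 10 imprinted genes was followed by RNA-seq in human and mouse embryonic stem cells (hESCs and mESCs), namely PLAGL1, PEG3, IGF2, DLK1, PEG10, SNRPN, NNAT, H19, MEG3 and CDKN1C. The genes were taken by symbol, and the mouse gene was the ortholog of the same symbol. All 10 were found among the 63677 genes counted in human and the 37991 counted in mouse, and all 10 were among the 14358 ortholog pairs that could be compared. An imprinted gene is expressed from the copy inherited from one parent, and the choice is set by DNA methylation placed in the egg or the sperm at control regions and kept through the divisions of the early embryo. Imprinted genes often act on fetal growth and on the placenta, and embryonic stem cells are known to lose or gain imprints in culture. The counts used here were not separated by parental copy, so they report the RNA of both copies together and do not show whether a gene was imprinted in these cells.

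The study asked how regulatory sequences act in hESCs and mESCs, with a massively parallel reporter assay (MPRA) in which a pool of designed sequences drives a barcoded GFP reporter, and it sequenced the RNA of the same cells. Of the 31 samples of the series, 18 were polyA+ RNA-seq libraries made with a kit that does not mark strand. hESCs were the line HUES64, kept without feeder cells in mTeSR1, and were sequenced untransfected (3 libraries, 1 from each of 3 passages) or after transfection of the MPRA pool with Lipofectamine Stem (9 libraries, 3 transfections in each of 3 passages). mESCs had been derived from blastocysts, were kept without feeder cells in 2i medium, and were sequenced untransfected (3 libraries) or after transfection with another Lipofectamine reagent (3 libraries), 1 in each of 3 passages. The titles of the samples give only a number, which was taken as the passage because the study used 3 passages of each cell type. Each species was therefore represented by cells in its own medium with its own reagent, and species, line, medium and reagent cannot be told apart. Passages of 1 culture were the replicates, so that the p-values measure the spread within that culture only. In the main test between cell types the transfected and untransfected samples of a passage entered as independent, although those of mESCs deviated together. Its p-values thus count each passage more than once.

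Each library held between 15107041 and 22018956 counts. The list of 8 pluripotency genes had all 8 at a mean of at least 1 cpm in every group, where cpm is the count of a gene scaled to the size of its library, with a summed level of 4122 to 4958 cpm in hESCs and 3121 to 3777 cpm in mESCs. All 37 mitochondrial genes were listed at 0 in human, where mouse libraries gave them 1.80% to 2.21% of counts, and human genes with a second copy on an alternate contig were often at 0. Such pairs were left out of the comparison between species, and none of the 10 genes was among them.

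The genes differed in how strongly they were expressed within each cell type, on the scale of cpm per kilobase of exon, which allows genes of different length to be compared. In untransfected hESCs PEG10 stood first with 54.1 ± 0.846 cpm per kb (SD, n = 3 passages), followed by NNAT with 20.1 ± 3.34, SNRPN with 5.99 ± 0.477, CDKN1C with 1.31 ± 0.254 and H19 with 1.30 ± 0.109. CDKN1C and H19 did not differ beyond their spread. DLK1 (0.324 ± 0.0788), PLAGL1 (0.195 ± 0.0607) and IGF2 (0.10 ± 0.0292) came next, and the passages of neighbours in this order overlapped. In untransfected mESCs SNRPN stood first with 28.9 ± 2.47 cpm per kb, followed by PEG3 with 17.6 ± 0.691, PLAGL1 with 11.4 ± 2.41, MEG3 with 9.65 ± 3.53 and PEG10 with 2.64 ± 0.926. The passages of PLAGL1 and MEG3 overlapped there, and CDKN1C (1.77 ± 0.378), H19 (0.906 ± 0.268), NNAT (0.785 ± 0.147), IGF2 (0.387 ± 0.146) and DLK1 (0.00928 ± 0.0161) came after them. Of these, the passages of H19 and NNAT overlapped, as did those of PEG10 and CDKN1C. Of the 5 genes that led in hESCs, SNRPN and PEG10 were also among the first 5 in mESCs. The summed level of the 10 genes was 406 to 425 cpm in untransfected hESCs and 522 to 671 cpm in untransfected mESCs.

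**Figure D1:**
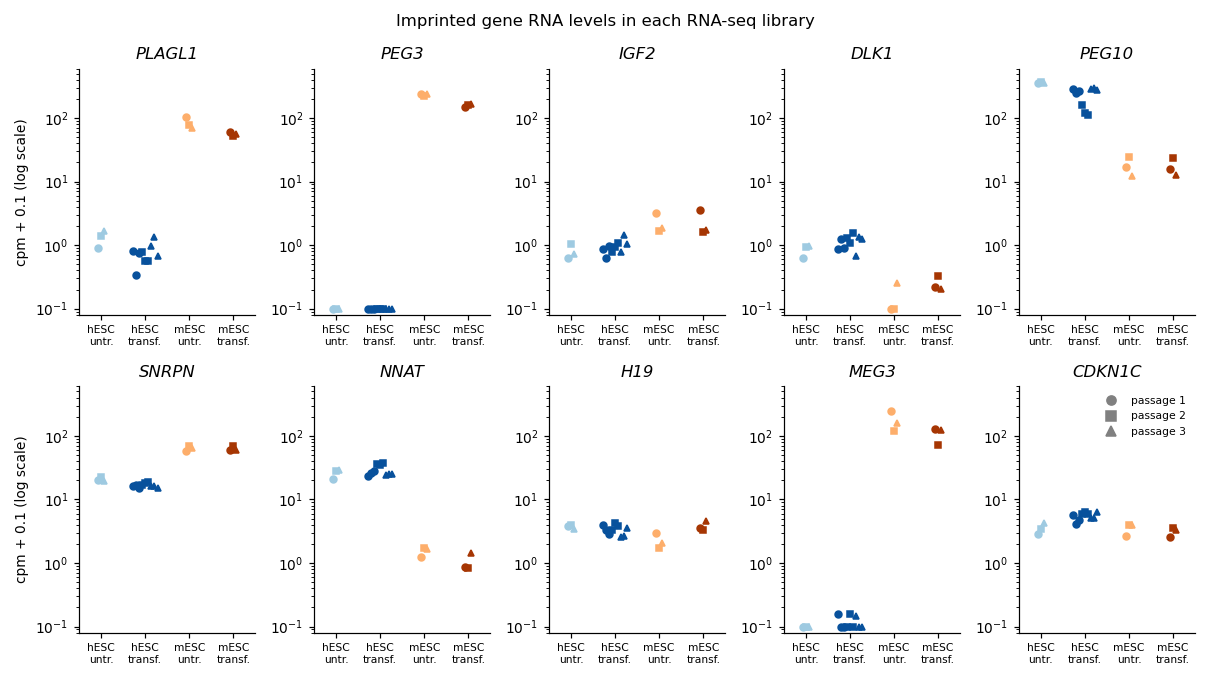
RNA level of each of the 10 imprinted genes in the 18 libraries, as cpm + 0.1 on a log axis, with 1 point for each library, the 4 groups along the x axis and the passage given by the symbol. PEG3 lay at 0 cpm in all 12 hESC libraries and between 148 and 241 cpm in the 6 mESC libraries, whereas the levels of H19 and CDKN1C overlapped between the cell types.

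The first comparison asked which of these genes differed between mESCs and hESCs. Of the 10, 5 were higher in mESCs (PEG3, MEG3, PLAGL1, SNRPN and IGF2), 3 were lower (NNAT, PEG10 and DLK1), and 2 (H19 and CDKN1C) passed no test. A gene was called at an adjusted p under 0.01 and a log2 fold change of at least 1 in either direction, by edgeR's quasi-likelihood test with Benjamini-Hochberg adjustment over 11406 ortholog pairs with transfection in the model. Of all pairs tested, 55.8% were called, 26.8% as higher in mESCs and 29% as lower, so a call was the common outcome between these cells, and 8 of 10 is to be read against that share. The median log2 fold change was 0.71 over the 10 genes and -0.00 over all pairs, and the median of its absolute value over the 10 was 3.45. All 10 passed the filter of 1 cpm in 3 of the 12 passage samples, PEG3, MEG3 and IGF2 only through mESCs and DLK1 only through hESCs, and a gene that passed through 1 cell type alone had to differ. Below, genes are also described by whether all libraries of 1 cell type lay above or below those of the other. The share of all pairs separated in that way was not counted, so such separation cannot be judged against it. In these bulk samples a smaller share of expressing cells and less RNA in each cell cannot be told apart.

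PEG3, a zinc finger gene expressed from the paternal copy, had no count in any of the 12 hESC libraries, in which 218625040 counts were assigned to genes. In mESCs it was at 224, 240 and 241 cpm in the untransfected libraries and at 148, 162 and 165 cpm in the transfected ones, so the cell types were fully separated. Against a floor of 3 counts over the hESC libraries, PEG3 was at least 4782-fold higher in untransfected mESCs and at least 8334-fold higher in transfected mESCs. PEG3 lies at chr19:57321445-57352096 in hg19 (minus strand), where 11.2% of its exon bases are shared with the neighbouring imprinted gene ZIM2, and at chr7:6656603-6683132 in mm9, where none are shared. ZIM2 and USP29, which neighbour it, were also listed at 0 in all hESC libraries. Of the 7513 compared pairs with at least 10 cpm in mESCs, 13 were at 0 in hESCs, or 0.173%, and PEG3 was one of them.

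MEG3, a long noncoding RNA expressed from the maternal copy, was separated in the same way. It had no count in the 3 untransfected hESC libraries and 1 count in each of 3 of the 9 transfected ones. In mESCs it was at 118, 162 and 244 cpm in untransfected and at 71.7, 123 and 126 cpm in transfected libraries. MEG3 was at least 3464-fold higher in untransfected mESCs against the floor of 3 counts, and in transfected cells its ratio over 3 hESC counts was 5647 (95% counting interval 1931 to 27391). The fitted log2 fold changes of PEG3 and MEG3, 15.3 and 12.9, depend on the small count that edgeR adds to zeros and are no measure of size. MEG3 lies at chr14:101245747-101327368 in hg19 and at chr12:110779211-110809936 in mm9, both on the plus strand, in the same imprinted cluster as DLK1.

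DLK1, a transmembrane protein related to the Notch ligands and expressed from the paternal copy, went the other way from MEG3 at this shared cluster. It lies at chr14:101192042-101201539 in hg19 and chr12:110691033-110701546 in mm9 and shares no exon base there. Untransfected hESCs gave 0.535, 0.830 and 0.863 cpm, and the transfected ones ranged from 0.572 to 1.42 cpm with a median of 1.13. In mESCs 3 counts were found in 1 of the 3 untransfected libraries (0, 0 and 0.157 cpm), and the transfected ones were at 0.102, 0.116 and 0.226 cpm. Every hESC library thus lay above every mESC library, at low levels in both. The fit gave a log2 fold change of -2.96 (SE 0.41, edgeR's quasi-likelihood test, adjusted p = 9.5e-06), and the pooled counts, 11 in mESCs against 206 in hESCs, gave a ratio of 0.109 (95% counting interval 0.0534 to 0.199). DLK1 passed the filter through hESCs alone and so had to differ, and its adjusted p is no support for a difference. With the annotated exon length of each species as an offset (2290 bases in human, 5657 in mouse) the log2 fold change was -4.65, and without any 1 of the hESC passages DLK1 fell below the filter and was not tested.

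PLAGL1, a zinc finger transcription factor expressed from the paternal copy and known to slow the cell cycle, was near 1 cpm in hESCs and abundant in mESCs. Untransfected hESCs gave 0.803, 1.27 and 1.54 cpm and transfected ones 0.238 to 1.22 cpm with a median of 0.650. Untransfected mESCs gave 69.0, 78.2 and 103 cpm and transfected ones 52.8, 55.7 and 61.1 cpm. The lowest mESC library was far above the highest hESC library, and the log2 fold change was 6.36 (SE 0.20, edgeR's quasi-likelihood test, adjusted p = 1.7e-12), or 82.4-fold. With exon length as an offset it was 5.72. PLAGL1 lies at chr6:144261437-144385735 in hg19 (minus strand) and at chr10:12810497-12851500 in mm9 (plus strand), and shares no exon base with another gene in either.

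PEG10, which derives from a retrotransposon gag gene and is needed for the placenta, was the most abundant of the 10 genes in hESCs. Untransfected hESCs gave 354, 356 and 365 cpm and transfected ones 112 to 293 cpm with a median of 264. Untransfected mESCs gave 12, 16.6 and 24.2 cpm and transfected ones 12.5, 15.6 and 23.0 cpm. All mESC libraries lay below all hESC libraries, and PEG10 was lower in mESCs by a log2 fold change of -3.94 (SE 0.26, edgeR's quasi-likelihood test, adjusted p = 3.5e-09), or 15.4-fold. PEG10 lies at chr7:94285637-94299007 in hg19 and at chr6:4697306-4710517 in mm9, both on the plus strand and with no exon base shared.

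NNAT, which encodes the small membrane protein neuronatin, was lower in every mESC library than in every hESC library. hESCs gave 21.1, 27.7 and 29.2 cpm untransfected and 23.3 to 36.8 cpm with a median of 26.4 when transfected. mESCs gave 1.13, 1.57 and 1.61 cpm untransfected and 0.735, 0.754 and 1.32 cpm transfected. Its log2 fold change was -4.43 (SE 0.21, edgeR's quasi-likelihood test, adjusted p = 9.1e-11), or 21.6-fold lower in mESCs, and -5.34 with exon length as an offset. NNAT lies in an intron of BLCAP, at chr20:36149617-36152092 in hg19, where 6.57% of its exon bases are shared, and at chr2:157385814-157388258 in mm9.

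SNRPN, which encodes the splicing protein SmN and is expressed from the paternal copy, was abundant in both cell types and differed by less. hESCs gave 19.4, 20.5 and 22.7 cpm untransfected and 14.9 to 18.7 cpm with a median of 16.4 when transfected. mESCs gave 58.0, 63.6 and 68.8 cpm untransfected and 58.9, 60.7 and 70.4 cpm transfected. SNRPN was higher in every mESC library, with a log2 fold change of 1.87 (SE 0.11, edgeR's quasi-likelihood test, adjusted p = 8.1e-10), or 3.66-fold. Its human value is uncertain, since 42.1% of its exon bases in hg19 (chr15:25068794-25223870) are shared with SNURF, SNHG14 and another gene, while the mouse gene (chr7:67127388-67285105 in mm9) shared none.

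IGF2 and H19 are neighbours on human chromosome 11 and mouse chromosome 7, where they are expressed from opposite parental copies under 1 control region. In hg19 IGF2 lies at chr11:2150342-2170833 and H19 at chr11:2016406-2022700, and in mm9 they lie at chr7:149836673-149852721 and chr7:149761434-149764048, all on the minus strand. IGF2, a fetal growth factor, was at 0.535, 0.636 and 0.928 cpm in untransfected hESCs, 0.536 to 1.33 cpm in transfected hESCs (median 0.817), 1.55, 1.78 and 3.04 cpm in untransfected mESCs and 1.53, 1.63 and 3.48 cpm in transfected mESCs. The cell types did not overlap, and with 2 of the 6 hESC passage samples at the minimum of the filter IGF2 was tested through mESCs alone. Its log2 fold change was 1.58 (SE 0.26, edgeR's quasi-likelihood test, adjusted p = 5.8e-05). As a gene tested through 1 cell type alone had to differ, this adjusted p is no support for a difference. Of the human exon bases of IGF2, 27.6% are shared with IGF2-AS, INS-IGF2 and another gene, against 1.78% in mouse, and without strand reads of these genes cannot be told apart. H19, a noncoding RNA, was at 3.32, 3.75 and 3.91 cpm in untransfected hESCs, 2.48 to 4.20 cpm in transfected hESCs (median 3.22), 1.61, 1.99 and 2.85 cpm in untransfected mESCs and 3.17, 3.48 and 4.47 cpm in transfected mESCs. Over all libraries its cell types overlapped, but every untransfected mESC library lay below every untransfected hESC library, with a ratio of pooled cpm of 0.576 (95% counting interval 0.455 to 0.727), against 1.15 (0.976 to 1.36) in transfected cells. These intervals of H19 leave out the spread between passages, and the share of all pairs separated in untransfected cells was not counted. The log2 fold change with transfection in the model was -0.16 (95% interval -0.62 to 0.29, edgeR's quasi-likelihood test, adjusted p = 0.48).

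CDKN1C, the maternally expressed cyclin-dependent kinase inhibitor p57, also overlapped between the cell types over all libraries. It lies at chr11:2904443-2907111 in hg19 and chr7:150644255-150646955 in mm9, on the minus strand with no exon base shared. CDKN1C was at 2.78, 3.32 and 4.09 cpm in untransfected hESCs and at 2.58, 3.80 and 3.88 cpm in untransfected mESCs. Transfected hESCs were at 4.05 to 6.30 cpm with a median of 5.60, and transfected mESCs at 2.44, 3.15 and 3.45 cpm. Every transfected mESC library thus lay below every transfected hESC library, with a ratio of pooled cpm of 0.564 (95% counting interval 0.474 to 0.667), against 1.01 (0.828 to 1.24) in untransfected cells. Here too the intervals leave out the spread between passages, and the share of all pairs separated in transfected cells was not counted. The log2 fold change was -0.32 (95% interval -0.74 to 0.10, edgeR's quasi-likelihood test, adjusted p = 0.14). The directions of H19 and CDKN1C turned with the samples used, since CDKN1C was at 0.09 in untransfected samples alone and H19 at 0.28 in transfected samples alone.

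**Figure D2:**
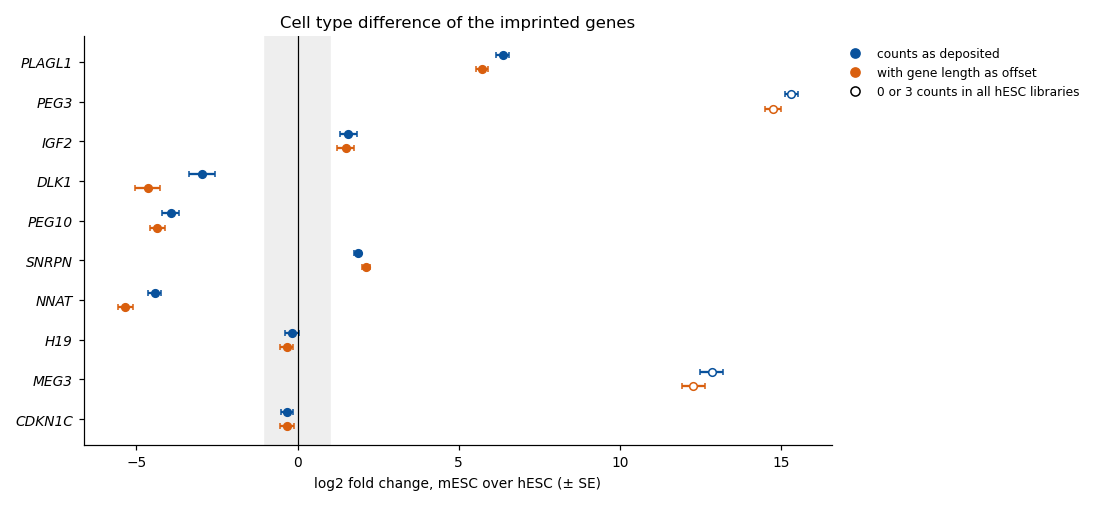
Log2 fold change of mESCs over hESCs for each imprinted gene, with the SE as bars, from the counts as deposited (blue) and with the annotated exon length as an offset (orange). The grey band marks an absolute log2 fold change under 1 and open points mark PEG3 and MEG3, whose hESC libraries held 0 and 3 counts in all and whose fitted values are no measure of size.

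Genes with the pattern of PEG3 and NNAT across the 18 libraries were sought among pairs of similar mean level. Over 2343 pairs, TRPC2, RNF17 and GTSF1L had the highest Pearson correlation of log2(cpm + 1) with PEG3, at 0.9996, 0.9992 and 0.9992. Over 2875 pairs, LDOC1, ANKRD13B and JPH4 had the highest with NNAT, each at 0.996. These correlations rest on the gap between the cell types, which all 6 pairs share, and describe no more than that.

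Calls among the lists below are to be read against the 55.8% of all pairs that were called. The filter applied here too, and list genes that passed it through 1 cell type alone, MKRN3 and USP29 among them, had to differ. How many of the called genes did so was not counted. Of 31 further imprinted genes, 22 were tested, of which 8 were higher in mESCs and 10 lower, beside 26.8% and 29% of all pairs, with a median log2 fold change of -0.58. The highest were MKRN3 (log2 fold change 9.33), USP29 (7.65), DIO3 (5.05), RTL1 (4.91) and SLC38A4 (4.04), and the first pair had 1 and 0 counts in all hESC libraries, so that their fitted values are no measure of size. DIO3 and RTL1, neighbours of DLK1 and MEG3, were at 3.04 to 4.34 and 0.803 to 1.59 cpm in untransfected mESCs and at 0.0535 to 0.0976 and 0 to 0.0454 cpm in untransfected hESCs. The lowest were GNAS (-8.58), INPP5F (-4.77), MEST (-4.08), L3MBTL1 (-3.12) and NAP1L5 (-2.84). The values of MEST are uncertain, as 23.0% of its exon bases in mouse and 14.3% in human are shared with other genes. Its fold change also averages over transfection responses that differed between the cell types, as given below. The mouse value of GNAS, 2.25 to 2.89 cpm in untransfected mESCs against 766 to 1046 cpm in untransfected hESCs, is uncertain, as 22% of its mouse exon bases are shared with Nespas and another gene. The part of this sharing in the difference was not tested.

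Of 16 genes that keep, write or remove imprints and DNA methylation, 14 were tested, with 5 higher in mESCs and 4 lower, beside 26.8% and 29% of all pairs, and a median log2 fold change of 0.35. The higher ones were DNMT3L (log2 fold change 6.42), DPPA3 (6.15), which protects imprints in the early embryo, the methylcytosine oxidases TET2 (5.08) and TET1 (2.89), and the histone methyltransferase SETDB1 (1.54). The lower ones were CTCFL (-5.10), the de novo methyltransferases DNMT3B (-4.96) and DNMT3A (-3.14), and TET3 (-2.85). DNMT3B was at 2087 to 2353 cpm in untransfected hESCs and at 48.4 to 72.3 cpm in untransfected mESCs. ZFP57, which binds methylated imprint control regions, was at 567 to 604 cpm in untransfected mESCs and listed at 0 in hESCs, but it lies in a human region with an alternate copy and was not compared.

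Of 14 genes of insulin-like growth factor signalling, in which IGF2 is a ligand, 13 were tested, and none was higher in mESCs while 5 were lower, beside 26.8% and 29% of all pairs, with a median log2 fold change of -0.47. These were the binding proteins IGFBP6 (log2 fold change -6.24), IGFBP4 (-4.87) and IGFBP5 (-2.81), the adaptor IRS1 (-5.05), for which 30.9% of mouse exon bases are shared, and the receptor IGF1R (-3.09). The value of IGFBP5 averages over transfection responses that differed between the cell types, as given below. IGF1R was at 166 to 204 cpm in untransfected hESCs and at 16.8 to 20.9 cpm in untransfected mESCs. IGF2R, which takes IGF2 up for degradation, was at 199 to 242 cpm in untransfected hESCs and at 222 to 251 cpm in untransfected mESCs.

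**Figure D3:**
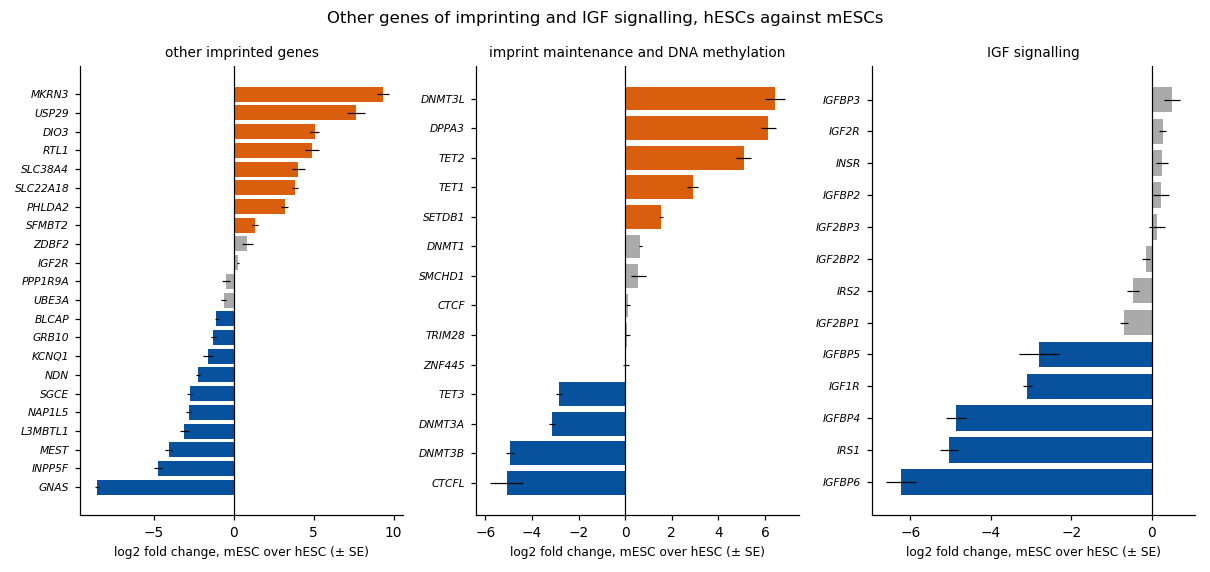
Log2 fold change of mESCs over hESCs (bars, with the SE as lines) for the tested genes of 3 lists, with genes called higher in mESCs in orange, called lower in blue and not called in grey. Among the other imprinted genes 8 were called higher and 10 lower, among the genes of imprint maintenance 5 and 4, and among the genes of IGF signalling 0 and 5.

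The second comparison asked how transfection of the MPRA pool moved these genes in hESCs, where 8 of the 10 passed the filter and PEG3 and MEG3 did not. None of the 8 was called at an adjusted p under 0.05 by edgeR's quasi-likelihood test over 18060 genes, of which 0.93% were called. An unadjusted p under 0.05 was found for 3 of the 8, and for 4363 of the 18060 genes. DESeq2 also called none of them. The number of genes called over all genes ranged from 0 of 18162 without passage 1 to 7333 of 18272 without passage 3. Of the 8 genes, CDKN1C alone was called without passage 3 (edgeR's quasi-likelihood test, log2 fold change 0.87, adjusted p = 0.031).

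CDKN1C was higher in transfected cells of all 3 passages, at 4.75 against 2.78 cpm, 6.01 against 3.32 and 5.36 against 4.09, and a single transfected library, at 4.05 cpm, lay within the untransfected range. Its log2 fold change was 0.67 (SE 0.22, edgeR's quasi-likelihood test, adjusted p = 0.16). PLAGL1 was lower in all 3 passages, with a log2 fold change of -0.87 (SE 0.35, edgeR's quasi-likelihood test, adjusted p = 0.19). PEG10 and SNRPN were lower in every transfected library than in every untransfected one, as were 10.4% of genes with a mean of at least 1 cpm, while 11.3% were higher in that way. SNRPN differed by -0.31 on the log2 scale (95% interval -0.68 to 0.06, edgeR's quasi-likelihood test, adjusted p = 0.24).

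PEG10 differed by -0.64 on the log2 scale (SE 0.28, edgeR's quasi-likelihood test, adjusted p = 0.20), and this value rested in large part on 1 passage. The 3 transfections of passage 2 gave 157, 118 and 112 cpm, those of passage 1 gave 289, 250 and 264 cpm and those of passage 3 gave 281, 293 and 274 cpm. Without passage 2 the log2 fold change was -0.32. The transfected libraries of passage 2 also correlated least with the 3 untransfected hESC libraries, over genes with a mean above 1 cpm. Their correlations were 0.900 to 0.951, against 0.956 to 0.972 in passage 1 and 0.984 to 0.990 in passage 3. The part of this in the value of PEG10 was not tested.

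Of the marker lists of other cells, 2 had a summed level that was higher in every transfected hESC library, each carried by abundant single genes. The summed level of 6 neural ectoderm genes was 588 to 684 cpm against 381 to 478 cpm in untransfected hESCs, and nearly all of it was NES, with a mean of 613 against 397 cpm, with PAX6 at means of 0.356 against 1.17 cpm and DCX at 2.44 against 6.58 cpm. The summed level of 7 fibroblast or feeder genes, most of it THY1, was 788 to 1247 cpm against 571 to 643 cpm, with the fibroblast gene LUM at 0 in both groups. Of each list 4 genes were tested, with a median log2 fold change of -0.59 and 0.49, and none was called by edgeR's quasi-likelihood test. Their part in the values of the imprinted genes was not tested. Among the genes of IGF signalling IGFBP5 rose on transfection (log2 fold change 2.71, edgeR's quasi-likelihood test, adjusted p = 0.0065), from 2.32 to 4.15 cpm to a range of 16 to 26.8 cpm, and no other gene of the 3 lists was called.

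**Figure D4:**
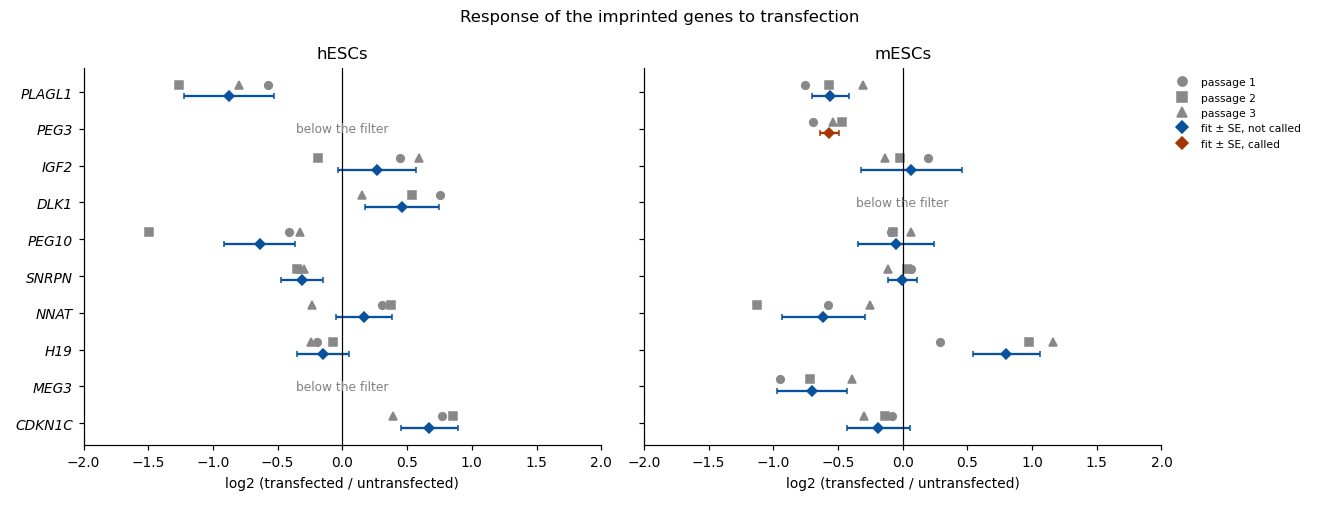
Log2 ratio of transfected over untransfected cells in hESCs (left) and mESCs (right), with grey symbols for each passage and coloured diamonds for the edgeR estimate with its SE as bars. PEG3 in mESCs, at -0.57, was the 1 gene called without the passage as a block (with it MEG3, PLAGL1 and H19 were called too), and PEG10 in hESCs was lowest in passage 2, at -1.50.

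In mESCs 9 of the 10 genes passed the filter, DLK1 being too low, and PEG3 fell on transfection. The 3 transfected libraries of PEG3 all lay below the 3 untransfected ones, at 148 against 240 cpm in passage 1, 162 against 224 in passage 2 and 165 against 241 in passage 3. Its log2 fold change was -0.57 (SE 0.07, edgeR's quasi-likelihood test, adjusted p = 0.041), and over all 14436 genes 1.09% were called. With any 1 passage left out PEG3 was not called, at an adjusted p between 0.052 and 0.413, although the log2 fold change stayed between -0.61 and -0.50.

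PLAGL1 and MEG3 were lower and H19 higher in all 3 passages without passing that test. PLAGL1 differed by -0.56 on the log2 scale (SE 0.14, edgeR's quasi-likelihood test, adjusted p = 0.088) and all of its transfected libraries were below the untransfected ones, as PEG3 was and as were 14.4% of genes with at least 1 cpm. H19 differed by 0.80 (SE 0.26, adjusted p = 0.15) and all of its transfected libraries were above the untransfected ones, as were 11.8% of genes. MEG3 differed by -0.70 (SE 0.27, adjusted p = 0.20), and its groups overlapped, with passage 2 the lowest in both, at 71.7 against 118 cpm.

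The libraries of 1 mESC passage deviated together, and with the passage as a block 3316 genes, or 23%, were called by edgeR's quasi-likelihood test. Of the 10 genes, 4 were called in that fit, namely PEG3 (log2 fold change -0.57, adjusted p = 0.00089), MEG3 (-0.69, adjusted p = 0.0018), PLAGL1 (-0.54, adjusted p = 0.0028) and H19 (0.81, adjusted p = 0.023). In the fit without the block, to which these values belong, the log2 fold change was -0.00 for SNRPN (95% interval -0.26 to 0.25), -0.05 for PEG10 (-0.71 to 0.62), 0.07 for IGF2 (-0.82 to 0.95), -0.19 for CDKN1C (-0.74 to 0.36) and -0.61 for NNAT (-1.34 to 0.12). These 5 genes were called in neither fit. None of the 3 lists of other genes had a member called without the block. The summed level of the 7 fibroblast or feeder genes was 2.15 to 3.36 cpm in transfected and 2.05 to 3.15 cpm in untransfected mESCs, with LUM and DCN at 0. That of 6 mesoderm genes was higher in every transfected library, at 18.3 to 21.4 against 10.2 to 15.2 cpm. Most of it was EOMES, with means of 17.6 against 10.9 cpm. Of these mesoderm genes 2 were tested and none was called by edgeR's quasi-likelihood test. Their part in the values of the imprinted genes was not tested.

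The difference between the responses of the cell types was tested as an interaction over the 11406 pairs, of which 0.675% were called by edgeR's quasi-likelihood test at an adjusted p under 0.05. None of the 10 genes was called, and 2 had an unadjusted p under 0.05, as did 1280 of the 11406 pairs. H19 had an interaction of 1.01 on the log2 scale (95% interval 0.30 to 1.73, adjusted p = 0.27), and CDKN1C one of -0.80 (95% interval -1.51 to -0.08, adjusted p = 0.40). Those of PEG3 and MEG3 could not be measured, as hESCs held almost none of their RNA. MEST (1.23, adjusted p = 0.039) and IGFBP5 (-2.94, adjusted p = 0.027) were called among the genes of the 3 lists.

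The MPRA pool held 23 sequences of 144 bases that lie in 1 of these genes or within 1000 bases of it, at IGF2, DLK1, PEG10 and CDKN1C, and each matched the genome of its species in full. After filters on barcodes 18 remained, 8 of them human and 10 mouse. These sequences were chosen by the study as transcription start sites (TSSs) of any RNA at the locus, and many lie inside the genes or on the other strand, so they were not taken as promoters of the imprinted genes. MPRA activity was the ratio of RNA to DNA reads divided by the median of the random sequences. Over 1604 random sequences the 95th percentile of activity was 2.05 in hESCs and 1.88 in mESCs, and the median of 11861 TSS sequences was 1.41 and 1.26.

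Of these sequences 5 are shown because the most active and the least active of the set, and a counterpart of the other species for 2 of them, are among them. They are read 5′ to 3′ on the strand that drove the reporter, all on the plus strand, and capitals mark CpG dinucleotides, the sites of DNA methylation.
Human IGF2, chr11:2161351-2161494 (hg19): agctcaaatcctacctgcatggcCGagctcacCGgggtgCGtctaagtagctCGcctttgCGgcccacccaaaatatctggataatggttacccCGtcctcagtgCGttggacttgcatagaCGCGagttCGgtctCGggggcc
Mouse Igf2, chr7:149846168-149846311 (mm9): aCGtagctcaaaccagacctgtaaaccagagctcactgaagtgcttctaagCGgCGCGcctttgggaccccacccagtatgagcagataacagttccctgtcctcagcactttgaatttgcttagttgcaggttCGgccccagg
Human PEG10, chr7:94286883-94287026 (hg19): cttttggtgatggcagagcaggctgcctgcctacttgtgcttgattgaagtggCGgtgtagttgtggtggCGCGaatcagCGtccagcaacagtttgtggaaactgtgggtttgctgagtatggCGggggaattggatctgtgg
Mouse Peg10, chr6:4698937-4699080 (mm9): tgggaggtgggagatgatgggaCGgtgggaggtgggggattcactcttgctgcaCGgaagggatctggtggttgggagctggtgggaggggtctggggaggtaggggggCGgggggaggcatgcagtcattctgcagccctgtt
Mouse Peg10, chr6:4698823-4698966 (mm9): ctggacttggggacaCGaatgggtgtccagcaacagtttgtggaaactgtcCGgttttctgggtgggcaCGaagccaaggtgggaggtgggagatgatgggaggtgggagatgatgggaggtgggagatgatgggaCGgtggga

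The human IGF2 sequence holds 11 CpG and lies in an exon with coding bases of IGF2, in the orientation opposite to IGF2 and the same as IGF2-AS. Its activity was 5.69, 3.76 and 4.01 in the 3 passages of hESCs and 4.11, 3.49 and 4.21 in mESCs, above 99.2% and 99.6% of random sequences. The mouse Igf2 sequence, identical to it at 66.4% of aligned positions, holds 5 CpG and lies in an intron of Igf2 and an exon of Igf2as. Its activity was 1.54, 1.39 and 1.42 in hESCs and 1.23, 1.15 and 1.16 in mESCs, lower than the human sequence in every passage of both cell types. No test of the difference between these sequences was made.

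At PEG10 the sequences lie in its intron. The mouse sequence at chr6:4698937-4699080, with 3 CpG, reached 3.33, 5.46 and 5.23 in the hESC passages and 1.61, 2.95 and 3.12 in the mESC passages. All 3 mESC passages were below all 3 hESC passages. The share of all sequences separated in this way was not counted, and 1866 of 13469 were called lower in mESCs. For this mouse sequence the log2 difference of -0.75 (95% interval -1.43 to -0.07) had an adjusted p of 0.11 by edgeR's quasi-likelihood test, on 670 DNA reads. The sequence just upstream, which overlaps its first bases, at chr6:4698823-4698966, with 4 CpG, was at 0.502, 0.838 and 0.828 in hESCs and at 1.02, 0.703 and 0.770 in mESCs. It lay under the random median in 5 of the 6 passage values. The human counterpart of this weaker sequence, identical to it at 49.7% of aligned positions and with 5 CpG, averaged 1.76 ± 0.120 (SD) over the 3 hESC passages and 1.84 ± 0.352 over those of mESCs. A pair of mouse sequences on the other strand of the same intron averaged 2.44 and 2.33 when assayed in hESCs, and 1.78 and 2.04 when assayed in mESCs, and 1 of them covers nearly the same bases as the most active one. A mouse Cdkn1c sequence with 19 CpG also averaged 3.23 ± 0.873 (SD) in the hESC passages but ranged from 0.0545 to 4.77 in the mESC passages, on 322 DNA reads.

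None of the 18 sequences was called as different in activity between mESCs and hESCs by edgeR's quasi-likelihood test at an adjusted p under 0.05, where 21.9% of 13469 sequences were called, and 7 were higher and 11 lower in mESCs, although other settings called 2 of them. The smallest adjusted p was that of a sequence in an annotated exon of human DLK1, at chr14:101192908-101193051 in hg19, which differed by -0.59 on the log2 scale (95% interval -1.06 to -0.11, adjusted p = 0.073) with a mean activity of 1.90 in hESCs and 1.18 in mESCs. This value depended on single passages, being -0.96 without mESC passage 1 (adjusted p = 0.0016) and -0.72 without hESC passage 2 (adjusted p = 0.048) but -0.36 without hESC passage 1, -0.45 without mESC passage 2 and -0.39 without mESC passage 3 by edgeR's quasi-likelihood test. With scaling to the random sequences it was -0.64 (adjusted p = 0.036). The other sequence was one at human IGF2, with a difference of 0.22 that became 0.37 (adjusted p = 0.028) without mESC passage 3. Next to the DLK1 sequence in order was a mouse Cdkn1c sequence at chr7:150645650-150645793 in mm9 with a difference of 0.42 (95% interval 0.05 to 0.80, adjusted p = 0.10), at 1.06 in hESCs and 1.31 in mESCs. The 2 IGF2 sequences above differed by -0.09 (95% interval -0.39 to 0.21) and -0.19 (95% interval -0.43 to 0.04), and the 2 neighbouring sequences at human PEG10 and mouse Peg10 of lower activity by 0.18 (95% interval -0.17 to 0.53) and 0.32 (95% interval -0.43 to 1.07). The direction of 7 of the 18 sequences turned under some other setting, all of them with intervals that held 0.

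**Figure D5:**
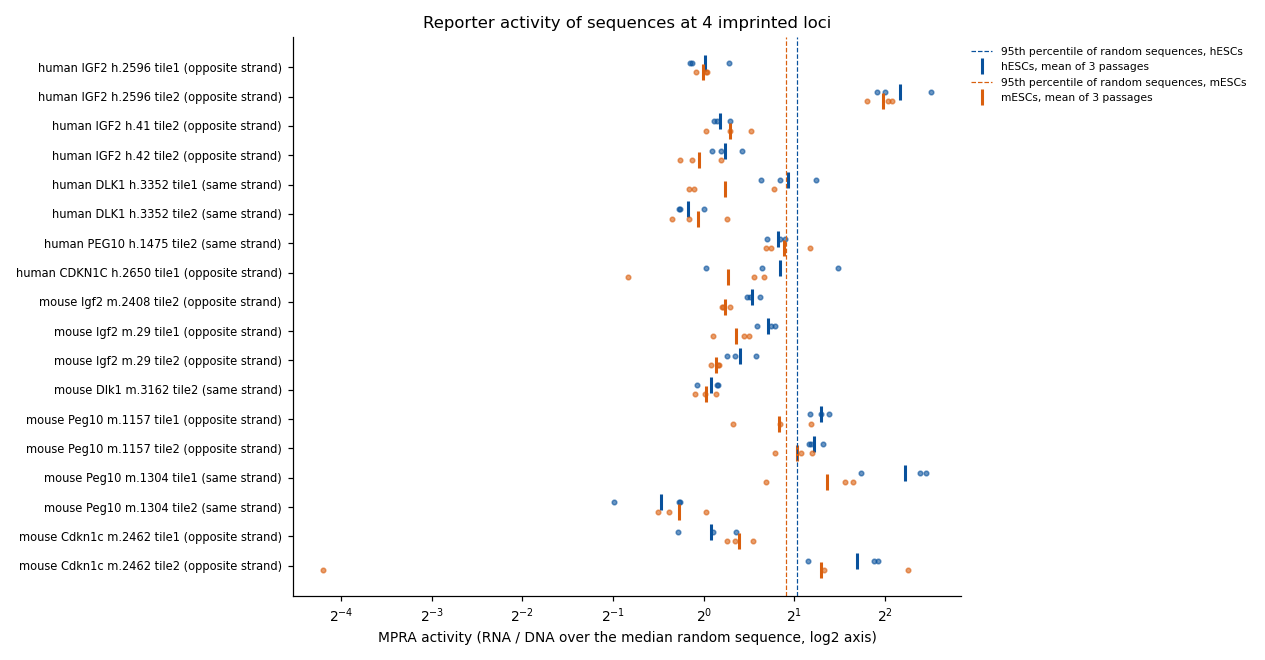
MPRA activity of the 18 measured sequences at 4 imprinted loci on a log2 axis, with circles for the 3 passages of hESCs (blue) and mESCs (orange), bars for their means, and dashed lines at the 95th percentile of random sequences (2.05 and 1.88). Labels give the gene, the design number of the TSS, the tile and the strand relative to the gene; the human IGF2 sequence at 4.48 in hESCs and 3.94 in mESCs stands apart from the other sequences at that gene.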

How the data were processed

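For RNA-seq, paired reads had been aligned with HISAT2, and the authors counted fragments over the exons of each gene with featureCounts 2.0.0 and no strand option, depositing the raw counts. The headers of the files place genes on hg19 and mm9, whereas the methods name mm10 for mouse. For the MPRA, the deposited values are raw read counts of each barcode after trimming with cutadapt. No molecular identifiers were used, so intervals and floors cover counting error only. For HISAT2 and cutadapt, the version is not given in the sources used here.

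The 10 genes and all lists were chosen with earlier results of these data known. The genes named beyond the 10 were up to 5 called genes of each list and direction, by size of fold change, and the 3 pairs most like the genes that differed most in each direction. Cpm is the count scaled to the library total. For tests, libraries from the 3 transfections of a passage of hESCs were added up. Ortholog pairs came from the TF list of the study and then from equal symbols. Left out were 43 pairs on alternate contigs, 36 mitochondrial pairs and 119 pairs in regions of human chromosomes 4, 6 and 17 with an alternate copy, where human counts were often 0.

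Tests were edgeR's quasi-likelihood tests (edgeR 4.0.16, R 4.3.3) with TMM scaling, fitted on all pairs, genes or sequences and adjusted by Benjamini-Hochberg, and checked on simulated data. Pairs needed 1 cpm, scaled here to the counts of all pairs, in 3 samples, and genes within a species passed filterByExpr. Calls used an adjusted p under 0.01 with a log2 fold change of 1 or more in size between cell types, and an adjusted p under 0.05 otherwise. MPRA barcodes needed 10 DNA counts and sequences 50% of their barcodes, and RNA counts were fitted with DNA counts as offset. The MPRA libraries held between 72917827 and 138483196 reads. The number in the sample titles was taken as the passage, after the 3 passages of the methods, and same-numbered mESC libraries deviated together (correlations 0.477, 0.478 and 0.555). The alternatives were DESeq2 1.42.0 and its size factors, limma 3.58.1, no filter, the passage as a block, gene length as an offset, each transfection state alone, the first transfection alone, another barcode minimum, scaling to random sequences and leaving out each passage.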

Additional observations from a re-analysis of the deposited data

Results flagged for a closer look

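For 2 of the 10 genes transfection went opposite ways in the cell types in every passage. The share of all pairs with such a pattern was not counted, so this number cannot be judged against it. H19 was lower in all 3 transfected passages of hESCs and higher in all 3 of mESCs, with a difference between the responses of 1.01 on the log2 scale. CDKN1C was higher in all 3 transfected passages of hESCs and lower in all 3 of mESCs, with a difference of -0.80. In 1 cell type each the shifts were small, at -0.20, -0.07 and -0.24 on the log2 scale for H19 in the hESC passages. For CDKN1C in the mESC passages they were -0.08, -0.14 and -0.30. Neither gene passed the interaction test of edgeR with Benjamini-Hochberg adjustment (adjusted p = 0.27 and 0.40).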

How the results depend on the processing

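Between mESCs and hESCs the counts of calls stayed within 1.5 times under every alternative run, and 134 of 136 values of the 10 genes kept their direction and side of the threshold. CDKN1C turned to 0.093 in untransfected samples alone and H19 to 0.28 in transfected samples alone. DLK1 was not tested without a hESC passage or in untransfected samples alone.

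The counts of genes moved by transfection depended on the fit. In hESCs DESeq2 called 994 of 18060 genes, no filter gave 2673 of 35039 and the passage as replicate block 62 of 18060. Leaving out a passage gave 0 of 18162 to 7333 of 18272, and of the 10 genes these fits called 0 to 1. In mESCs DESeq2 called 998 of 14436 genes (2 of the 10) and no filter gave 904 of 23449 (3 of the 10). The passage as replicate block gave 3316 of 14436 (4 of the 10), and leaving out a passage 0 of 14576 to 62 of 14572 (0 of the 10). The interaction had 230 calls by DESeq2, 45 with the replicate block and 8 to 2154 on leaving out a passage. In hESCs the pairing was not seen in the data, with correlations of 0.148, 0.038 and -0.051 within passages. The replicate block changed no other call of the 10 genes, and the causes of these changes were not tested.

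Values near 0 changed sign. On transfection, IGF2 was -0.011 in hESCs with the first transfection alone and -0.081 to 0.14 in mESCs on leaving out a passage, and SNRPN in mESCs was 0.0072 without the filter and -0.034 to 0.048 on leaving out a passage. In the interaction PEG3 was 0.76 by DESeq2, and leaving out a passage gave -0.57 to 0.059 for IGF2 and -0.088 to 5.0 for DLK1, whose mESC counts were nearly all 0. Of the reporter sequences, the first transfection alone gave -0.030 and 0.0084 for one at human IGF2 and one at mouse Igf2, -0.013 at mouse Dlk1 and 0.13 at mouse Peg10, and scaling to random sequences gave -0.012 at mouse Dlk1. Leaving out a passage gave -0.0048 to 0.27 and -0.21 to 0.16 for the pair at human IGF2, -0.72 to 0.0072 at human CDKN1C, -0.015 to 0.091 at mouse Dlk1, -0.19 to 0.063 at mouse Peg10 and -1.16 to 0.27 at mouse Cdkn1c. Taking in sequences beyond 1000 bases of a transcript start, chosen after seeing the data, raised those measured from 11 to 18. Depth limits DLK1, MEG3 and PEG3, each with at most 11 counts in 1 cell type.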
